A study of Mus musculus with 12 samples.

Results

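Transcripts of 8 secretory granule protease genes, Mcpt8, Prss34, Cpa3, Gzmb, Tpsb2, Tpsab1, Cma1 and Mcpt4, were followed across immature and mature basophils grown with IL-3 or with TSLP. The genes were taken by symbol from a count table of 31301 gene symbols, and all 8 had a row. Of these, 7 had at least 1 count in some library, and 4 (Mcpt8, Prss34, Cpa3 and Gzmb) had enough counts to be tested.

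Basophils and mast cells store proteases in secretory granules, bound to negatively charged proteoglycans, and discharge them when IgE on the high-affinity receptor FcεRI is crosslinked. Mcpt8 encodes a serine protease that in mice marks basophils, and Prss34 encodes a tryptase-like serine protease found in the same cells. Cpa3 encodes carboxypeptidase A3, a metalloprotease of basophils and mast cells, whereas tryptases (Tpsb2, Tpsab1) and chymases (Cma1, Mcpt4) are the characteristic serine proteases of mast cells. Gzmb encodes granzyme B, best known from cytotoxic lymphocytes.

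The cells were bone marrow-derived basophils (BMBAs) from C57BL/6J WT mice, cultured for 7 days with either IL-3 at 0.3 ng/mL or TSLP at 1 µg/mL (the treatment protocol gives this unit for TSLP, while the label of each TSLP sample writes milligrams). From each kind of culture, FcεRIαhi CD49blo cells were sorted as immature basophils, which the study also calls pre-basophils, and FcεRIαlo CD49bhi cells as mature basophils. This gave 4 groups of 3 libraries, all from whole bone marrow cultures without a genetic change. The labels give neither the age of the mice nor which libraries came from the same culture, so the p-values below measure the spread between libraries, part of which may be technical. Because the sort used the amounts of FcεRIα and CD49b protein, the immature and mature groups are gates on 2 surface proteins within a mixed culture, not a time course.

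The libraries held 1720065 to 3685285 counts. All 9 basophil markers (among them Cd200r3, Fcer1a, Ms4a2, Itga2 and Gata2) had counts in every group, with a summed level of 4633 to 6354 CPM (counts scaled to a common effective library size) per library. These markers did not move as 1 with the stage. With IL-3, 3 were called higher and 5 lower in immature cells, where 22.1% of all genes were higher and 24.1% lower. With TSLP it was 2 and 3, where 12.2% and 12.9% of all genes were. Clec12a stood at 261 CPM in immature and 6.26 in mature cells with IL-3, and at 127 and 5.32 with TSLP. Il3ra was lower with TSLP than with IL-3 at both stages (log2 -1.45 and -1.42). The 10 mast cell markers that are not among the 8 genes summed to at most 8.19 CPM in any library, with Mrgprb2, Mcpt1 and Cma2 at 0 counts in all 12 and Kit, the stem cell factor receptor, at 1 to 5 counts over the 3 libraries of a group. Several other marker lists moved with the stage or the cytokine, and their part in the results below was not tested. The sum of 10 genes of neutrophils and myeloid progenitors was 2716 to 3028 CPM in immature and 339 to 481 in mature cells with IL-3, and 1421 to 1479.6 and 97.9 to 909.8 CPM with TSLP, but this sum followed Ctsg and Mpo, and the list did not move as 1. Of its 9 tested genes, Ctsg, Mpo and Lcn2 were higher in immature cells in both cultures, whereas Ltf, Ngp, Camp, S100a8 and S100a9 gave log2 fold changes of -2.72 to -1.75 with IL-3, none called, and of -4.80 to -3.12 with TSLP, all 5 called (list medians -1.75 and -3.12). Macrophage markers summed to 146 to 274 CPM in immature and 337 to 631 in mature cells with IL-3, with 3 of 5 called lower in immature cells, and to 195 to 239 and 484 to 1170.1 CPM with TSLP, with 5 of 5 called lower. Eosinophil markers summed to 16.4 to 36.4 CPM in immature and 61 to 103 in mature libraries, but this list did not move as 1 either. Siglecf and Ccr3 were called lower in immature cells in both cultures. Prg2 was called higher in immature cells with IL-3, at 23.6 against 3.24 CPM (log2 2.85, edgeR adjusted p = 0.00702), and was not called with TSLP. B lineage markers were at 5.71 to 6.29 CPM in IL-3 immature against 26.2 to 31.7 in TSLP immature libraries. The library TSLP mature 1 stood apart. It held 909.8 CPM of the neutrophil and progenitor markers against 97.9 and 106 in the other 2 of its group, 1170.1 CPM of macrophage markers against 507 and 484, and 129 CPM of B lineage markers against 14.8 and 17.5. Without it, 0 of the 5 lower neutrophil genes and 4 of 5 macrophage markers were called lower in TSLP immature cells. Prg2 was then called higher in those cells (log2 2.70, edgeR adjusted p = 0.00313). Below, values without TSLP mature 1 are given where they differ in a call or by much in size. Ribosomal transcripts of 3 genes (Rn45s, Rn18s and Rn28s1) took 14.7% to 25% of the counts of immature and 20.2% to 24.5% of those of mature libraries with IL-3, and 35% to 40.1% and 17.3% to 34.7% with TSLP.

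The 8 genes lie at 3 places in the mouse genome (build GRCm38, GENCODE M21 annotation). Mcpt8 (chr14:56082166-56085273), Mcpt4 (chr14:56059629-56062313), Cma1 (chr14:55941451-55944675) and Gzmb (chr14:56258838-56262260) lie on the minus strand of the chymase locus of chromosome 14. Prss34 (chr17:25298394-25300165, plus strand), Tpsab1 (chr17:25343245-25345562, minus strand) and Tpsb2 (chr17:25366305-25369098, plus strand) lie in the tryptase locus of chromosome 17. Cpa3 lies on its own at chr3:20215620-20242181 on the minus strand. RefSeq lists Tpsab1 of this C57BL/6J assembly as a transcribed pseudogene. Exons of none of the 8 genes overlapped an annotated exon on the opposite strand. Stretches of 50 bases that also occur in another gene's transcripts made up 5.38% of those of Cma1 and 5.48% of those of Mcpt4, and none were found for the other 6 genes.

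The 250 bases before the annotated start of Prss34 and of Cpa3 are printed because both genes were high in immature cells and each window held an AGATAA motif, the sequence that GATA factors such as GATA2 of basophils recognise. Capitals mark this motif, and the sequences are RefSeq's (GRCm38.p6), in the direction of the gene.
Prss34, chr17:25298144-25298393, plus strand: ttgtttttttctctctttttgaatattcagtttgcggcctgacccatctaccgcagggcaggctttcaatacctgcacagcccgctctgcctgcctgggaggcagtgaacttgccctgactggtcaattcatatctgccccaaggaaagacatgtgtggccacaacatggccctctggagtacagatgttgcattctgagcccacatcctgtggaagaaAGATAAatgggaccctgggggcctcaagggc
Cpa3, chr3:20242182-20242431, minus strand: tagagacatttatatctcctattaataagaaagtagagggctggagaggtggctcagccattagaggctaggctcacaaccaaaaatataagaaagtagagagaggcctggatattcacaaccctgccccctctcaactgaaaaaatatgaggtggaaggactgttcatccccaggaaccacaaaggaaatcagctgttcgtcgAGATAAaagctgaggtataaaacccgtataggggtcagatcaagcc
The motif ended 26 bases before the start of Prss34 and 41 bases before the start of Cpa3. RefSeq's promoter table held windows for 6 of the 8 genes, and AGATAA was found on either strand in 9.99% of all 32851 windows of this length. The related letters TGATAA, which do not overlap AGATAA, were in 7.94% of all windows and, among the 6, in that of Mcpt4 alone. The windows of Mcpt8 (chr14:56085198-56085447) and Mcpt4 overlapped an annotated exon of their own gene, unlike those of Prss34 and Cpa3. Part of each was thus not upstream of every annotated start. The Mcpt8 window held neither AGATAA nor TGATAA. It held CANNTG, the E-box of basic helix-loop-helix factors, at 3 places, as did 66.2% of all windows at 1 or more places, and TGTGGT, the letters bound by RUNX factors, at 2 places, as did 14% of all windows at 1 or more. CANNTG was also in the windows of Prss34, Cpa3, Gzmb and Cma1, and TGTGGT in those of Cpa3, Gzmb and Mcpt4. TTCNNNGAA, a STAT motif found in 7.02% of all windows, was in none of the 6. A match of letters is only a description, and binding of a factor was not measured.

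Prss34 was the protease whose transcript differed most between stages. It stood at 17108, 21227 and 20606 CPM in the 3 IL-3 immature libraries and at 918, 762 and 684 CPM in the IL-3 mature ones. In TSLP cultures it stood at 14513, 14188 and 16521 CPM in immature cells and at 1499, 961 and 1173 CPM in mature cells. In both cultures every immature library lay far above every mature library, and the 3 TSLP mature libraries lay above the 3 IL-3 mature ones.

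Mcpt8 was high in all 12 libraries and spanned a smaller range. With IL-3 its level was 16424, 15574 and 16382 CPM in immature and 5775, 4686 and 4510.3 CPM in mature libraries. With TSLP it was 9037, 8592 and 8667 CPM in immature and 4236, 2166 and 2290.4 CPM in mature libraries. The highest TSLP mature value is that of TSLP mature 1, the library with the raised neutrophil and B lineage markers, and it was still below the lowest IL-3 mature library.

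Cpa3 followed the order of Mcpt8 with lower values. With IL-3 it stood at 3223, 3228 and 2759 CPM in immature and at 1844, 1322 and 1314 CPM in mature libraries. With TSLP it stood at 1683, 1629 and 1600.2 CPM in immature and at 863, 699.9 and 656 CPM in mature libraries. The IL-3 mature and TSLP immature libraries overlapped, and every other pair of groups was separate.

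Gzmb was close to the limit of detection, with 8 to 21 counts per library. Its mean level was 4.92 ± 1.51 CPM (SD, n = 3) in immature and 4.09 ± 1.28 in mature cells with IL-3, and 5.45 ± 1.44 and 5.03 ± 0.983 CPM with TSLP, and all 4 groups overlapped. Of the other cytotoxic lymphocyte markers, Gzma had no count in any library and Prf1, which encodes perforin, had at most 2 in a group. Nkg7, a cytotoxic granule membrane protein, held most of that list's sum in immature cells, with 405 counts in immature and 17 in mature cells with IL-3, and 84 and 28 with TSLP.

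**Figure D1:**
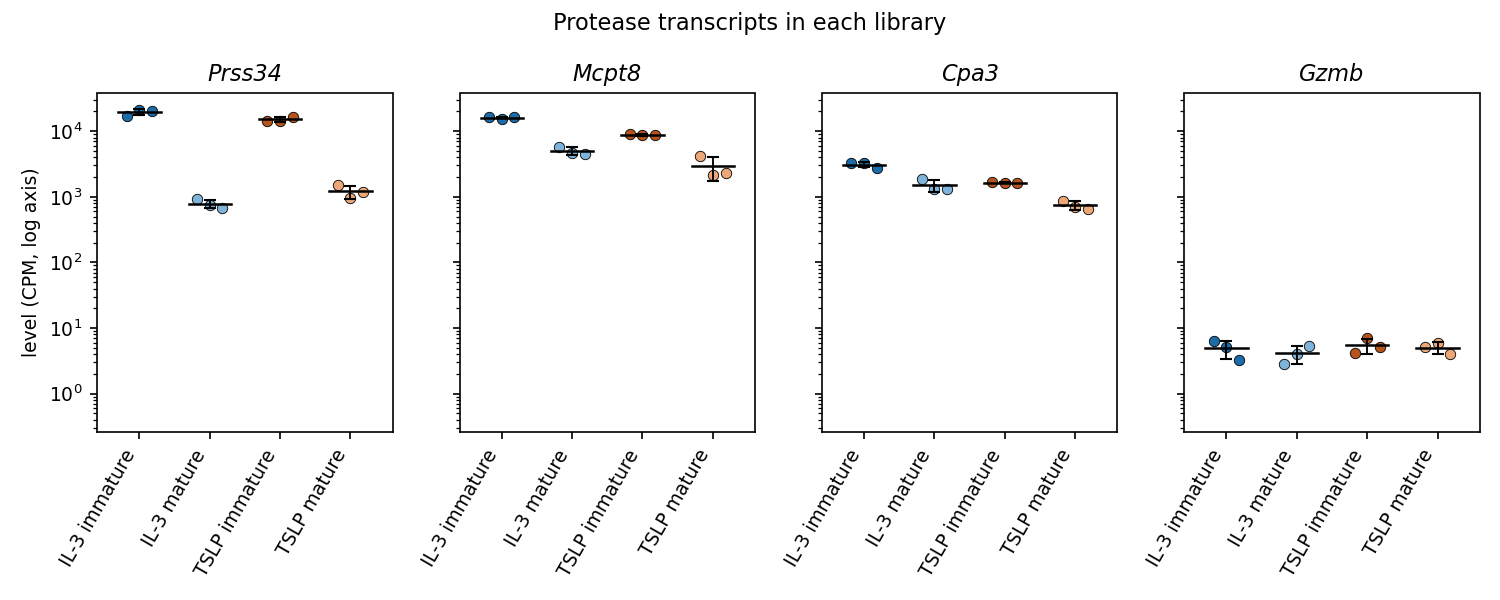
Level in CPM on a log axis of Prss34, Mcpt8, Cpa3 and Gzmb in the 12 libraries, by group; points are libraries, lines the means and bars the SD of 3 libraries. Prss34 fell from a mean of 19647 to 788 CPM between immature and mature cells with IL-3 and from 15074 to 1211 CPM with TSLP, whereas Gzmb stayed between 2.85 and 7.03 CPM.

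Per kilobase of transcript, a scale on which genes can be compared with each other, Mcpt8 and Prss34 were among the most abundant messages of immature cells. Among 23905 genes with a transcript length, without the ribosomal genes, Mcpt8 ranked from 1 to 2 and Prss34 from 2 to 3 in the IL-3 immature libraries, and Prss34 from 1 to 2 and Mcpt8 from 3 to 4 in the TSLP immature ones. In mature cells Mcpt8 kept a rank of 4 to 5 with IL-3 and of 8 to 19 with TSLP. Prss34 ranked from 135 to 161 with IL-3 and from 63 to 75 with TSLP. Cpa3 ranked from 15 to 18 in immature and 80 to 104 in mature cells with IL-3, and from 44 to 53 and 143 to 149 with TSLP. Which protease came second to Mcpt8 in mature cells differed between the cultures: with IL-3 it was Cpa3, at 1030.3 against 646 CPM per kilobase for Prss34, and with TSLP it was Prss34, at 993 against 510.4 for Cpa3. The ratio of Prss34 to Cpa3 per kilobase was 0.591 to 0.685 in the IL-3 mature and 1.63 to 2.12 in the TSLP mature libraries, without overlap.

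The 8 genes together held 4.41% ± 0.0666 of all counts in immature (SD, n = 3) and 0.701% ± 0.111 in mature cells with IL-3, and 2.38% ± 0.0505 and 0.475% ± 0.183 with TSLP. Since the ribosomal share differed between groups, the shares were also taken without the 3 ribosomal genes, and were then 5.59% and 0.894% with IL-3 and 3.76% and 0.645% with TSLP. No group overlapped another in the first of these shares except the mature ones, at 0.606% to 0.823% with IL-3 and 0.367% to 0.686% with TSLP, where the highest is TSLP mature 1 and the other 2 were at 0.367% and 0.373%. In bulk RNA, fewer cells that make a transcript and less of it per cell cannot be told apart.

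**Figure D2:**
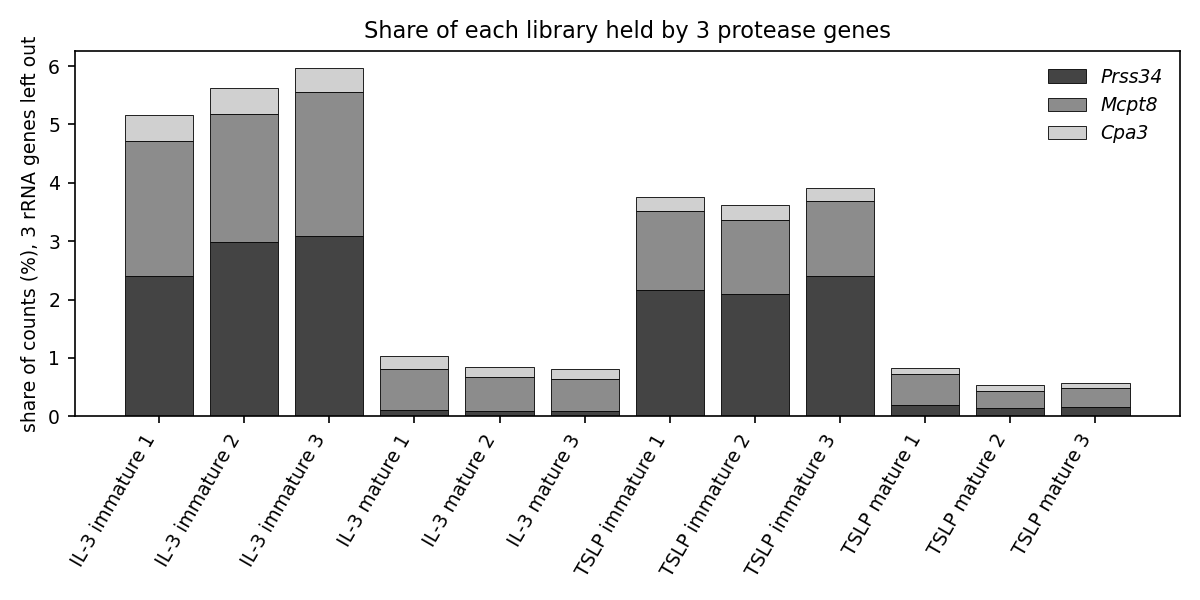
Share of counts, in percent, held by Prss34, Mcpt8 and Cpa3 in each of the 12 libraries, with 3 ribosomal genes left out of the total; bars are stacked by gene. With the counts of the other 5 genes added, immature libraries reach 5.17% to 5.96% with IL-3 and 3.61% to 3.92% with TSLP, and Prss34 is only a thin band in the mature libraries.

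The first comparison addressed how the stages differed in IL-3 cultures. Of the 4 genes tested, 3 were higher in immature cells at a Benjamini-Hochberg adjusted p under 0.05 (edgeR quasi-likelihood test, 1 fit over all 12 libraries and 10861 genes), in a comparison in which 46.2% of all genes were called, 22.1% higher and 24.1% lower in immature cells. Prss34 was 24.9-fold higher in immature than in mature cells (log2 fold change 4.64 ± 0.243 SE, adjusted p = 8.26e-10). Mcpt8 was 3.23-fold higher (log2 1.69 ± 0.243, adjusted p = 3.2e-05), and Cpa3 was 2.06-fold higher (log2 1.04 ± 0.19, adjusted p = 0.000324). Gzmb gave a fold of 1.2 with a 95% interval of 0.706 to 2.03 (adjusted p = 0.611). The libraries of the stages did not overlap for Prss34, Mcpt8 and Cpa3, as was the case for 57.8% of all genes tested. Prss34 ranked 188 among the 10861 fold changes in this direction, and Mcpt8 ranked 1001.

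In TSLP cultures the same 3 genes were higher in immature cells, where 25.1% of all genes were called, 12.2% higher and 12.9% lower in immature cells. Prss34 was 12.4-fold higher (log2 3.64 ± 0.231, adjusted p = 3.41e-08), Mcpt8 3.02-fold (log2 1.60 ± 0.242, adjusted p = 0.00015) and Cpa3 2.21-fold (log2 1.15 ± 0.191, adjusted p = 0.000355). Gzmb gave a fold of 1.07 with a 95% interval of 0.658 to 1.74 (adjusted p = 0.876). The libraries of the stages did not overlap for Prss34, Mcpt8 and Cpa3, as for 38.3% of all genes. Without TSLP mature 1 the log2 fold changes were larger, at 3.91 for Prss34, 2.07 for Mcpt8 and 1.37 for Cpa3, and all 3 stayed past the threshold.

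Whether the stage difference depended on the cytokine was tested as the difference of the 2 log2 fold changes, TSLP minus IL-3. None of the 4 genes passed adjusted p under 0.05 in edgeR, where 4.19% of all genes were called, and 1 of them, Prss34, had an unadjusted p under 0.05. The difference was -1.0 ± 0.296 for Prss34 (adjusted p = 0.067), -0.10 for Mcpt8 (adjusted p = 0.921), 0.11 for Cpa3 (adjusted p = 0.884) and -0.16 for Gzmb (adjusted p = 0.914). DESeq2 called 1 of the 4, Prss34, with a difference of -1.04 and an adjusted p of 0.008, and edgeR called it without TSLP mature 2 (-1.14, adjusted p = 0.0441) and without the filter on low counts (-1.06, adjusted p = 0.0334). Those were 3 of 20 alternatives, over which the difference ran from -1.14 to -0.77 and the adjusted p from 0.008 to 0.186. The smallest difference, -0.77 (adjusted p = 0.0547), was the one without TSLP mature 1. The 95% interval of the ratio of the 2 stage folds was 0.334 to 0.746 for Prss34, 0.594 to 1.47 for Mcpt8 and 0.75 to 1.55 for Cpa3. Itga2, which encodes the sorted CD49b, had a stage log2 fold change of -3.18 with IL-3 and -0.96 with TSLP (difference 2.22, edgeR adjusted p = 0.00287). For Fcer1a it was 0.64 and 0.08 (difference -0.56, adjusted p = 0.397). Without TSLP mature 1 the TSLP value of Fcer1a was 0.50 (adjusted p = 0.048). Whether the gates took cells of the same stage in both cultures was not tested.

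**Figure D3:**
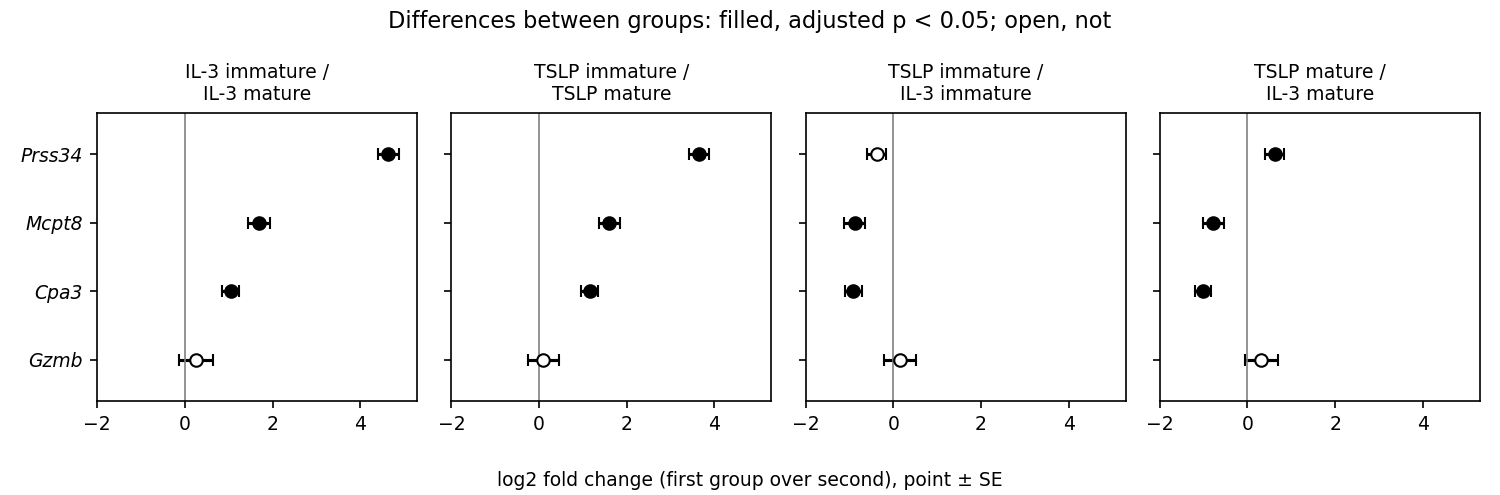
Log2 fold change (first group over second) ± SE of the 4 tested genes in the 4 comparisons of stages and cytokines; filled points have an adjusted p under 0.05. Prss34, at 4.64 and 3.64, lies far to the right of Mcpt8 and Cpa3 in both stage comparisons, and in mature cells Prss34 (0.62) lies on the opposite side of 0 from Mcpt8 (-0.78) and Cpa3 (-1.01).

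Among immature cells, Mcpt8 and Cpa3 were lower with TSLP than with IL-3, in a comparison in which 13.3% of all genes were called, 7.38% higher and 5.9% lower with TSLP. Mcpt8 stood at 0.544 of its IL-3 level (log2 -0.88 ± 0.238, adjusted p = 0.0233) and Cpa3 at 0.533 (log2 -0.91 ± 0.19, adjusted p = 0.00581). Prss34 stood at 0.767 with a 95% interval of 0.578 to 1.02 (adjusted p = 0.243), and Gzmb at 1.11 with an interval of 0.675 to 1.84 (adjusted p = 0.827). The libraries did not overlap for Mcpt8, Cpa3 and Prss34, as for 38% of all genes. The Mcpt8 call was lost when any 1 of the 6 IL-3 immature and TSLP immature libraries was left out, at adjusted p from 0.0524 to 0.0985, while its log2 fold change stayed between -0.95 and -0.88. Ribosomal transcripts, at 35% to 40.1% of TSLP immature against 14.7% to 25% of IL-3 immature counts, moved with this comparison, and without those genes the Mcpt8 and Cpa3 calls stood. Itga2, the gene of the sorted CD49b, also differed here, at 86.4 CPM with TSLP against 27.3 with IL-3 (log2 1.67, edgeR adjusted p = 0.000981). The part of the gate in this comparison was not tested.

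Among mature cells the proteases parted. Mcpt8 and Cpa3 were lower with TSLP and Prss34 was higher, with 24.3% of all genes called, 12.4% higher and 11.9% lower with TSLP. Those were 1345 genes higher and 1289 lower, a split that became 1019 and 1491 without the 3 ribosomal genes. Cpa3 stood at 0.495 of its IL-3 level (log2 -1.01 ± 0.191, adjusted p = 0.00201) and Mcpt8 at 0.581 (log2 -0.78 ± 0.238, adjusted p = 0.0257). Prss34 was 1.54-fold higher with TSLP (log2 0.62 ± 0.21, adjusted p = 0.0413), and Gzmb gave a fold of 1.25 with an interval of 0.748 to 2.08 (adjusted p = 0.574). The libraries did not overlap for Prss34, Mcpt8 and Cpa3, as for 38.6% of all genes.

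The Prss34 call in mature cells rested on the analysis settings and on single libraries. It held under 5 of 21 alternatives, with a log2 fold change between 0.35 and 0.75 over all of them, and was lost when any 1 library other than IL-3 mature 1 or TSLP mature 2 was left out. Without TSLP mature 1, which held the highest Prss34 value of its group, the log2 fold change was 0.35 (adjusted p = 0.137). The Mcpt8 call in mature cells was lost without IL-3 mature 1, IL-3 mature 2, TSLP mature 2 or TSLP mature 3 (adjusted p from 0.0551 to 0.0929). It was also lost when only the 2 groups compared were fitted (edgeR adjusted p = 0.101). Without TSLP mature 1 the Mcpt8 difference grew to -1.25 (adjusted p = 8.7e-05). The Cpa3 calls stood under all 21 alternatives, in immature and in mature cells, and in mature cells the log2 fold change without TSLP mature 1 was -1.22.

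Ordered by level, Mcpt8 fell from IL-3 immature to TSLP immature, IL-3 mature and TSLP mature cells, and each pair of neighbours in that order passed the test. The first step held under 15 and the last under 16 of 21 alternatives. TSLP immature was 1.76-fold above IL-3 mature (adjusted p = 0.0122, in a comparison with 40.2% of all genes called). Cpa3 had the same order of extremes, but TSLP immature and IL-3 mature cells did not differ beyond their spread, with a fold of 1.1 and a 95% interval of 0.849 to 1.42 (adjusted p = 0.605). For Prss34 the order was IL-3 immature, TSLP immature, TSLP mature and IL-3 mature. The first pair of neighbours in it did not pass the test, and the lower pair did so only at 0.0413. From the highest to the lowest group the fold was 5.57 for Mcpt8, 4.15 for Cpa3 and 24.9 for Prss34.

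Ratios of counts within a library do not depend on how libraries are scaled to each other, and they separated the groups. Prss34 had 1.04 to 1.36 counts per Mcpt8 count in immature and 0.152 to 0.163 in mature libraries with IL-3, and 1.61 to 1.91 and 0.354 to 0.512 with TSLP. No group overlapped another in this ratio, and at each stage it was higher with TSLP, at a mean of 1.72 against 1.22 in immature and 0.437 against 0.158 in mature cells. The ratio of Cpa3 to Mcpt8 counts differed less, at 0.191 ± 0.02 (SD, n = 3) in immature and 0.298 ± 0.0194 in mature libraries with IL-3, and 0.187 ± 0.00254 and 0.271 ± 0.0613 with TSLP. In this ratio TSLP mature 1, at 0.204, lay among the immature libraries, and the other mature libraries lay between 0.282 and 0.323. The ratios were described and not tested.

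**Figure D4:**
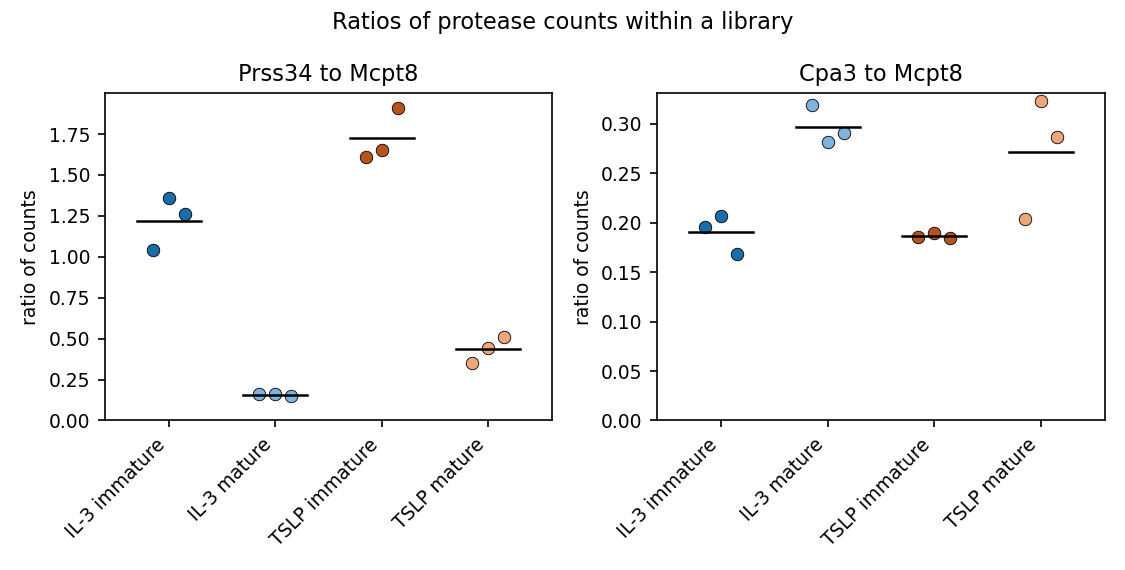
Ratio of Prss34 to Mcpt8 counts and of Cpa3 to Mcpt8 counts in each library, by group; points are libraries and lines the means of 3. The Prss34 to Mcpt8 ratio falls into 4 separate ranges, lowest in IL-3 mature (0.152 to 0.163) and highest in TSLP immature cells (1.61 to 1.91).

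The tryptases and chymases of mast cells had few counts or none. Tpsb2, a mast cell tryptase, had 6, 9 and 4 counts in the IL-3 immature libraries, 15, 6 and 0 in the IL-3 mature ones and 0 in all 6 TSLP libraries. Taking 3 counts over the group as the floor for a count of 0, its IL-3 immature estimate was 6.51 times the floor of TSLP immature cells. Its IL-3 mature estimate was 9.44 times the floor of TSLP mature cells. These folds leave out the counting error and the spread of the IL-3 libraries. In an edgeR fit without the filter on low counts the adjusted p was 0.00083 and 0.000102. These unfiltered tests of low genes were not repeated without single libraries. The unfiltered fit can give much smaller p-values. For Mcpt8 between IL-3 stages its edgeR adjusted p was 3.52e-13 (log2 1.78), against 3.2e-05 (log2 1.69) in the main fit. Without TSLP mature 1, Tpsb2 passed the filter, and edgeR gave an adjusted p of 0.0193 for TSLP mature against IL-3 mature cells (log2 -5.97). IL-3 mature 3, at 0, overlapped the TSLP mature libraries.

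Cma1, a chymase, had 8, 3 and 2 counts in immature and 5, 1 and 0 in mature libraries with IL-3, and with TSLP 1 count in 1 immature library and 0 in the other 5 libraries. IL-3 against TSLP gave an adjusted p of 0.0786 in immature and 0.0755 in mature cells in the unfiltered fit, neither past the threshold. Mcpt4, another chymase, had 1 count in IL-3 mature 1 and 2 counts in TSLP immature 1, and Tpsab1 had none in any library. A count of 0 over the 3 libraries of a group allows a level of up to 0.35 CPM in immature and 0.386 in mature cells with IL-3, and 0.34 and 0.286 CPM with TSLP, and these limits cover counting error only.

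Tpsg1 and Prss29 of the tryptase locus were as low. Tpsg1, a membrane-anchored tryptase, had 5, 8 and 7 counts in IL-3 immature libraries and 0 to 2 in every other library, and Prss29, a tryptase-like gene, had 5 to 9 in IL-3 immature, 3 to 8 in TSLP immature and 0 in all mature libraries. In the unfiltered fit Prss29 was higher in immature cells with IL-3 (adjusted p = 0.000198) and with TSLP (adjusted p = 0.000315). Its immature estimates were 6.34 times the floor of mature cells with IL-3 and 7.13 times with TSLP. Tpsg1 passed in IL-3 cultures between stages (adjusted p = 0.0241) and between cytokines in immature cells (adjusted p = 0.0438).

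**Figure D5:**
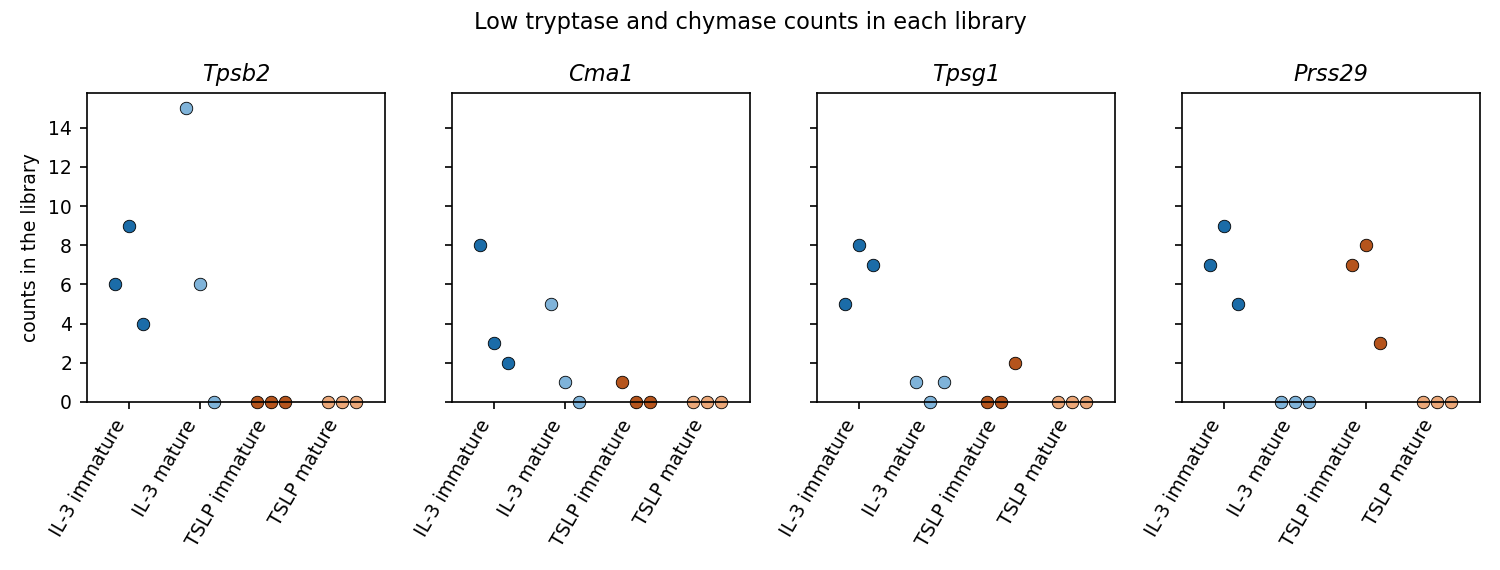
Counts per library of Tpsb2, Cma1, Tpsg1 and Prss29, by group; points are libraries. Tpsb2 has 4 to 15 counts in 5 of the 6 IL-3 libraries and none in TSLP libraries, whereas Prss29 has 3 to 9 counts in immature and none in mature libraries of either culture.

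Most genome neighbours of Mcpt8 and Prss34 had few counts or none. Across the chymase locus, from 50 kb before Cma1 to 50 kb past Gzmb, 19 of 29 annotated genes were in the table, 6 of them had no count, and 5 were tested (Khnyn, Sdr39u1, Mcpt8, Ctsg and Gzmb). Ctsg, which encodes cathepsin G and lies next to Mcpt8, was the other abundant protease gene there, at 1926 CPM in immature and 148 in mature cells with IL-3, and 979.7 and 87.6 CPM with TSLP. It was 13-fold higher in immature cells with IL-3 (log2 3.7 ± 0.26, adjusted p = 1.54e-08) and 11.2-fold with TSLP (log2 3.48 ± 0.258, adjusted p = 1.29e-07), values that lay between those of Mcpt8 and Prss34 in both cultures; without TSLP mature 1 the TSLP value was 3.93, beside 3.91 for Prss34. Like Mcpt8 and Cpa3, it was lower with TSLP in immature (log2 -0.98, adjusted p = 0.013) and mature cells (log2 -0.75, adjusted p = 0.032), the latter with overlapping libraries and at -1.19 without TSLP mature 1. Gzmb, at the far end of the same locus, stayed at a few CPM.

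In the tryptase locus, 11 of 13 annotated genes were in the table, and those tested included Baiap3, Prss34 and Prss28. Prss28, which encodes a tryptase-like protease and lies next to Prss34, had a mean of 16.5 CPM in immature and 3.22 in mature cells with IL-3, and 9.96 and 1.52 CPM with TSLP. It was higher in immature cells by 5.05-fold with IL-3 (log2 2.34 ± 0.297, adjusted p = 9.01e-06) and 6.36-fold with TSLP (log2 2.67 ± 0.33, adjusted p = 2.06e-05). Its differences between cytokines did not pass the test (log2 -0.73 and -1.06, adjusted p = 0.0666 and 0.0657).

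The genes whose pattern over the 12 libraries was most like that of each protease were taken by the root mean square difference of log2 CPM after centring each gene. For Prss34 these were Ube2c, a ubiquitin-conjugating enzyme of mitosis (0.24), the DNA primase subunit gene Prim1 (0.26) and Fignl1 (0.28). In IL-3 mature cells Prim1 and Fignl1 stood at 0.119 and 0.24 CPM, below the 0.386 CPM that a count of 0 allows there. Log2 CPM was taken with a prior count of 2, so the likeness of these 2 genes to Prss34 depends on that prior. For Mcpt8 they were Acbd6 (0.24), the histone chaperone family gene Anp32b (0.26) and the condensin subunit gene Smc4 (0.27), and for Cpa3 the histone methyltransferase gene Ezh2 (0.17), the endoplasmic reticulum chaperone gene Hsp90b1 (0.19) and Asrgl1 (0.19). Cpa3 was the gene ranked 20 in likeness to Mcpt8 (0.34), while Prss34 and Mcpt8 differed by 1.36. Libraries of 4 groups shape all of these values, and no test was attached to them.

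Of 14 genes that process or pack proteases 13 were tested, and 2 were higher and 5 lower in immature cells with IL-3, where 22.1% of all genes were higher and 24.1% lower, with a median log2 fold change of -0.42 beside -0.06 for all genes. With TSLP 0 were higher (also 0 at an unadjusted p under 0.05 in edgeR, and 0 in DESeq2) and 4 were lower, where 12.2% of all genes were higher and 12.9% lower, with medians of -0.22 and -0.03. Without TSLP mature 1 the TSLP counts were 1 higher and 2 lower of 14 tested, with 19% of all genes higher and 12.4% lower. The number called with IL-3 was thus near the share of all genes. Ctsc, which encodes the cathepsin that activates granule serine proteases, was lower in immature cells in both cultures (log2 -0.86 and -0.71, adjusted p = 0.00633 and 0.0327). Its TSLP call was lost without TSLP mature 1 (log2 -0.52, adjusted p = 0.1). Hdc, the histidine decarboxylase of histamine synthesis, was also lower in immature cells in both cultures (log2 -1.16 and -0.71, adjusted p = 4.85e-05 and 0.00626). Its TSLP call stood without TSLP mature 1. Chst15, a sulfotransferase of granule proteoglycans, was lower as well (log2 -1.36 and -0.80), whereas the chondroitin sulfotransferase gene Chst11 was higher with IL-3 (log2 0.93, adjusted p = 0.00111). Srgn, the serglycin core protein that holds proteases in granules, had the highest level of the list, between 1869 and 2519.7 CPM, and was not called in any of these comparisons. Slc18a2, the vesicular monoamine transporter, was higher in IL-3 immature than IL-3 mature cells (log2 0.83, adjusted p = 0.0224) and lower in TSLP than IL-3 immature cells (log2 -1.04, adjusted p = 0.0231), as were Mcpt8 and Cpa3. The IL-3 immature level of Slc18a2 spread widely, at 630 ± 303 CPM (SD), against 353 ± 31.6 in IL-3 mature and 307 ± 56.6 in TSLP immature cells. Between cytokines 1 gene of the list was higher (Hdc, log2 0.66) and 1 lower (Slc18a2) with TSLP in immature cells, and 1 was lower in mature cells (Chst15, log2 -0.72).

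All 11 genes of granule release were tested. With IL-3, 1 was higher and 6 were lower in immature cells, where 22.1% of all genes were higher and 24.1% lower (median -0.50 beside -0.06 for all genes). With TSLP 1 was higher and 1 lower, where 12.2% and 12.9% of all genes were (median -0.16 beside -0.03). Without TSLP mature 1 it was 3 and 1, where 19% of all genes were higher and 12.4% lower. Lyst, the lysosomal trafficking regulator, was lower in immature cells in both cultures (log2 -1.92 and -0.96). Snap23, a membrane fusion protein of exocytosis, and Syt11 were lower in immature cells with IL-3 (log2 -1.15 and -1.13). Cd63, a granule membrane tetraspanin at 1220.3 to 1678 CPM, was not called in any of these comparisons, but without TSLP mature 1 it was higher in TSLP immature than mature cells (log2 0.50, adjusted p = 0.0191) and lower with TSLP in mature cells (log2 -0.66, adjusted p = 0.00459). Rab27b, a GTPase of granule exocytosis, was the one that was higher, at 41.4 CPM in immature and 17 in mature cells with IL-3, and 15.7 and 3.81 CPM with TSLP (log2 1.27 and 2.06). It was also lower with TSLP in immature (log2 -1.39, adjusted p = 0.00384) and mature cells (log2 -2.17, adjusted p = 0.000626). Between cytokines, Snap23 was higher (log2 0.69) and Rab27b lower with TSLP in immature cells. Rab27b and Syt11 (log2 -1.02) were lower in mature cells, where 11.9% of all genes were lower. Without TSLP mature 1, 4 of the 11 were lower in mature cells, where 16.5% of all genes were lower.

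Of 10 inhibitors of granule proteases 6 were tested, and 3 were higher and 1 lower in IL-3 immature than mature cells, beside 22.1% and 24.1% of all genes (median 0.19 beside -0.06). With TSLP 1 was higher and 1 lower, beside 12.2% and 12.9% of all genes (median -0.01 beside -0.03, and 0.52 beside 0.05 without TSLP mature 1). Slpi, the secretory leukocyte protease inhibitor, which blocks cathepsin G and elastase, ran opposite to the proteases, at 409 CPM in immature and 2813 in mature cells with IL-3, and 864 and 1814 CPM with TSLP. It was lower in immature cells by log2 -2.78 ± 0.283 with IL-3 (adjusted p = 8.08e-07) and -1.07 ± 0.267 with TSLP (adjusted p = 0.0077). The stage difference of Slpi itself differed between cultures (1.71 ± 0.377, adjusted p = 0.016). Without TSLP mature 1 the TSLP value was -0.59 (adjusted p = 0.0455) and the difference between cultures 2.15 (adjusted p = 0.000315). Serpinb9, the intracellular inhibitor of granzyme B, averaged 0.631 to 3.68 CPM over the groups and was higher in immature cells with IL-3 (log2 1.82, adjusted p = 0.0361). Serpinb1a, a serpin of neutrophil-type serine proteases, was higher in immature cells in both cultures (log2 0.64 and 0.59), and Cst3, the cystatin C gene, at 237 to 357 CPM, was not called in any of these comparisons. Between cytokines, Slpi was higher with TSLP in immature cells (log2 1.08, adjusted p = 0.0151) and 0 of 6 inhibitors were called in mature cells by edgeR or DESeq2, with Slpi alone at an unadjusted p under 0.05 (0.0295). Without TSLP mature 1, 2 of the 6 were lower with TSLP in mature cells, where 16.5% of all genes were lower. They were Slpi (log2 -1.10, adjusted p = 0.00198) and Cst3 (log2 -1.01, adjusted p = 0.00107).

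Of 13 transcription factors linked to basophil and mast cell protease genes 12 were tested. In each culture 0 were higher (also 0 at an unadjusted p under 0.05 in edgeR, and 0 in DESeq2) and 5 were lower in immature cells. Of all genes, 22.1% were higher and 24.1% lower with IL-3, and 12.2% and 12.9% with TSLP. The medians were -0.49 beside -0.06 for all genes with IL-3 and -0.47 beside -0.03 with TSLP. Without TSLP mature 1, 3 were lower with TSLP, where 12.4% of all genes were lower, with a median of -0.12 beside 0.05. Tal1, a basic helix-loop-helix factor, had the largest difference in both (log2 -2.16 and -1.20) and a stage difference that differed between cultures (0.97 ± 0.242, adjusted p = 0.0335). Cebpb, Spi1 and Stat5b were lower in immature cells in both cultures as well, and with TSLP the Spi1 call was lost without TSLP mature 1 (log2 -0.29, adjusted p = 0.154). Gata2, at 685 to 1174 CPM on average, was lower in immature cells with IL-3 (log2 -0.73, adjusted p = 0.00338). With TSLP, Cebpb was higher than with IL-3 in immature (log2 0.86, adjusted p = 0.0184) and mature cells (log2 0.75, adjusted p = 0.0189), Spi1 in immature cells (log2 0.52) and Stat5a in mature cells (log2 0.78). Of all genes, 7.38% were higher and 5.9% lower with TSLP in immature cells, and 12.4% and 11.9% in mature cells. With TSLP 0 of the 12 were called lower by edgeR at either stage. At an unadjusted p under 0.05 it was 0 in immature and 2 in mature cells, where DESeq2 called 0 and 1. Without TSLP mature 1 edgeR called 1, Tal1, lower in mature cells (log2 -0.53, adjusted p = 0.03), where 16.5% of all genes were lower. Runx1 and Cebpa, at 427 to 609 and 317 to 404 CPM, were not called in any of these comparisons.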

How the data were processed

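The authors sorted C57BL/6J WT BMBAs, captured poly(A) RNA on oligo(dT) beads, amplified it by whole-transcriptome PCR, sequenced it on an Ion Proton, trimmed reads with Cutadapt, mapped them to mouse reference RNA (GRCm38) with Bowtie2 and counted reads per gene; the labels list GRCm39 and mm10 among builds. The deposited table holds these raw counts for 12 libraries (1720065 to 3685285 per library). Use of molecular identifiers, strand and multi-mapped reads is not given in the sources used here, so counts of near-identical genes are uncertain and floors cover counting error only. A nameless row equal to 50% of each column's sum was left out.

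Genes passing edgeR's filterByExpr (minimum count 10, total 15; 10861 of 31301 symbols) were fitted with TMM scaling and 4 group means over all 12 libraries in edgeR 4.0.16 (quasi-likelihood F test, R 4.3.3), with Benjamini-Hochberg adjustment over all genes tested and calls at adjusted p under 0.05. The SE is the absolute log2 fold change over the square root of F. Intervals of 95% take the SE as normal. CPM is counts over the effective library size, and levels per kilobase use the median length of a gene's coding transcripts (GENCODE M21). The script was tested on simulated data. Same-numbered libraries deviated with correlations of -0.0769 to 0.388, over 0.1 in 7 of 18 pairs. Whether a shared number marks a shared culture is not given in the labels.

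The 8 genes and all lists were chosen with earlier results of these data known. Named were all 8 genes, of each list the 3 tested genes highest by mean CPM and up to 3 called genes a direction with the largest changes, the 3 tested genes most like each member of at least 10 CPM, and tested neighbours within 50 kb, except for a result that is not reported here. Alternatives were DESeq2 1.42.0, its size factors, TMM on genes called in no comparison, no filter, a filter of 10 CPM in 3 libraries, a replicate block, only the groups compared, leaving out Rn45s and leaving out each library; leaving out 3 ribosomal genes, and the gene lists without TSLP mature 1, were added after seeing the data.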

Additional observations from a re-analysis of the deposited data

How the results depend on the processing

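The stage calls of Prss34, Mcpt8 and Cpa3 in both cultures and the Cpa3 calls between cytokines stood under all 21 alternatives. The count of the 4 tested genes called was 3 with IL-3 and 3 with TSLP between stages in every one. Between cytokines, leaving out 1 library gave 1 to 2 called in immature cells (against 2) and 1 to 2 in mature cells (against 3), and fitting only the 2 groups compared gave 1 in mature cells. For the difference of stage effects, where none was called, DESeq2 called 1, the fit without a filter 1, and leaving out 1 library 0 to 1, each time Prss34. Leaving out 1 library reversed the sign of uncalled differences of stage effects for Mcpt8 (-0.26 to 0.33, the latter without TSLP mature 1), Cpa3 (-0.07 to 0.28, the former without IL-3 mature 1) and Gzmb (-0.37 to 0.06), and of Gzmb between TSLP stages (-0.06 to 0.32) and between cytokines in immature cells (-0.10 to 0.33). The replicate block, with the numbers shared but not shown to pair libraries, changed no call of the 4 genes and gave a Prss34 log2 fold change of 4.65 with IL-3 and 3.65 with TSLP. Over all genes, 1443 calls between cytokines in immature cells ranged from 588 to 2243 with 1 library left out, 2634 in mature cells fell to 1658 without IL-3 mature 2 and to 1714 with only the 2 groups, 2731 between TSLP stages to 1774 without TSLP immature 1, and 455 differences of stage effects ranged from 240 to 723. Without the 3 ribosomal genes the mature calls split into 1019 higher and 1491 lower with TSLP, against 1345 and 1289. The filter of 10 CPM moved the median log2 fold change of all genes by 0.11 in both stage comparisons. Depth limits Tpsb2, Cma1, Mcpt4 and Tpsab1, which had too few counts for the main test.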
